A study of Mus musculus with 4 samples.

Results

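Drd1-gated nuclei were single brain nuclei that carried transcripts for a GABA-synthesizing enzyme, a striatal signaling enzyme and the dopamine D1 receptor. They were chosen by their own UMI counts, where a UMI is a molecular tag that counts 1 captured RNA molecule. A nucleus was selected on at least 1 UMI of Gad1 or Gad2, at least 5 UMIs of Pde10a and Rgs9 together, at least 1 UMI of Drd1, no UMI of Drd2 or Adora2a, and at most 1 UMI of Slc17a7. The rule found 296 of 52132 kept nuclei, and the values of these 8 genes in the 296 nuclei are therefore descriptions. The rule carries the name of D1 striatal projection neurons. However, 181 of the 296 nuclei fell into divisions with fewer than 3 listed D1 projection neuron markers raised above the other gated nuclei. The name Drd1-gated is therefore used throughout.

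The study sequenced nuclear RNA (snRNA-seq) from brains of 2-month-old female C57/BL6 mice that were either wild type (WT) or carried 1 intact copy of Csf1r, the receptor for colony stimulating factor 1 (Csf1r+/-, labeled HET). No agent was given. Both genotypes went through the same protocol, in which nuclei were taken from perfused brains without detergent and myelin debris was removed with magnetic beads. The null allele is in the germline and so in every cell, not in neurons alone. A total of 2 WT and 2 HET libraries were analysed, each from 1 mouse, and 1 further mouse of each genotype was sequenced but is not analysed here.

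Striatal projection neurons are GABAergic cells that make up most of the striatum. Those with the D1 receptor project directly to the basal ganglia output nuclei (the direct pathway), raise cAMP through the olfactory G protein and adenylyl cyclase 5, and make substance P and dynorphin. Those with the D2 receptor and the adenosine receptor Adora2a form the indirect pathway and make enkephalin. Striatal tissue is further split into striosomes and a surrounding matrix, and a smaller set of D1 cells, the eccentric neurons, has its own markers.

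The promoter stretches just upstream of the receptor gene that defined the gate and of its best detected direct pathway neuropeptide are shown with their matches to the cAMP response element, since the D1 receptor acts through cAMP. Drd1 spans chr13:54051183-54055705 on the minus strand and Tac1, the substance P precursor, spans chr6:7554879-7565834 on the plus strand (GRCm38, GENCODE). The printed sequences are from RefSeq (GRCm38.p6) and run 5′ to 3′ on the strand of the gene, ending at the base before the GENCODE start. They cover chr13:54055706-54055908 for Drd1 and chr6:7554811-7554878 for Tac1. Capitals mark TGACG or, on the other strand, CGTCA, the core of the cAMP response element.
Drd1: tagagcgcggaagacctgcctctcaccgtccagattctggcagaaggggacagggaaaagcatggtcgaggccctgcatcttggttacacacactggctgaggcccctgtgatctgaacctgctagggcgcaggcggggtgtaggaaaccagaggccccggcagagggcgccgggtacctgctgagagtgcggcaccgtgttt
Tac1: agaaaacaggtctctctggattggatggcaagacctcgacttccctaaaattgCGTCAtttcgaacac
The windows searched were the 250 bases before the RefSeq start, and both run past the GENCODE start into the gene spans given above. The Drd1 window held 0 matches. The Tac1 window held 2, of which 1 lies in the printed stretch and the other inside the GENCODE span of Tac1. Of 32851 promoter windows of 250 bases, 17.8% held the motif on either strand, so a match is common and is given as a description.

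The number of Drd1-gated nuclei was small in each library. WT 1 held 53 of 16114 kept nuclei (0.329%, 95% Wilson interval 0.252 to 0.430%). WT 2 held 116 of 15247 nuclei (0.761%, 0.635 to 0.912%). HET 1 held 65 of 9589 nuclei (0.678%, 0.532 to 0.863%), and HET 2 held 62 of 11182 nuclei (0.554%, 0.433 to 0.710%). The WT libraries thus bracketed both HET libraries, and the genotypes overlapped. These intervals cover counting error only. The mean share was 0.545% ± 0.305 in WT and 0.616% ± 0.0873 in HET (SD, n = 2 each, two-sided exact permutation p = 1, where 0.333 is the smallest p that 2 against 2 libraries allow).

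Depth differed between the libraries. The Drd1-gated nuclei held 539451, 1013843, 719670 and 582035 UMIs in all in WT 1, WT 2, HET 1 and HET 2, with medians per nucleus of 8557, 6940, 9631 and 7889 UMIs. After every nucleus was thinned to 4000 UMIs, with 5516, 6324, 2162 and 2515 shallower nuclei left out, the rule found 14, 48, 21 and 21 nuclei in WT 1, WT 2, HET 1 and HET 2 (0.132, 0.538, 0.283 and 0.242%). The HET minus WT difference changed from 0.0713 to −0.0725 percentage points under thinning, which also left the shallower nuclei out. Without WT 1 it was −0.145 at full depth, so the sign of the difference in share was not stable.

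The mirror rule, which asked for Drd2 or Adora2a and no Drd1, found 100, 145, 82 and 56 nuclei (383 in all). Drd1-gated nuclei were 34.6% of both gates in WT 1, 44.4% in WT 2, 44.2% in HET 1 and 52.5% in HET 2. The WT mean of 39.5% ± 6.93 and the HET mean of 48.4% ± 5.89 (SD, n = 2 each) differed by 8.84 points, and the libraries of the genotypes overlapped (exact permutation p = 0.667, a design that cannot go below 0.333). Only 10 nuclei carried both receptors, and 4791 passed the other gates with neither. Among kept nuclei, 272 barcodes occurred in more than 1 library, 4 of them on a Drd1-gated nucleus, and none on Drd1-gated nuclei of more than 1 library.

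Most nuclei passed the gate on a single Drd1 molecule. Drd1 stood at 1 UMI in 258 of 296 nuclei (87.2%), at 2 or more in 38, and never above 6. Drd1 reached 107.5, 142, 113.9 and 115.1 CPM in WT 1, WT 2, HET 1 and HET 2, where CPM is a gene's UMIs scaled to a total of 1000000 UMIs over the gated nuclei of that library. Pde10a, a striatum-enriched phosphodiesterase that degrades cAMP and cGMP, supplied nearly all of the second criterion. Pde10a and Rgs9 together had a median of 14 UMIs (range 5 to 170), while Rgs9, a regulator of G protein signaling enriched in striatum, was at 0 in 138 nuclei. Nuclei just inside the threshold (5 UMIs, n = 26) and just outside it (4 UMIs, n = 24) looked alike, with Rarb at 198 and 168, Meis2 at 601 and 427, and Erbb4 at 6910 and 7558 CPM. For comparison, Drd1 had a UMI in 3.7, 4.0, 3.0 and 3.6% of excitatory nuclei and in 0.4, 1.1, 0.5 and 0% of oligodendrocyte nuclei, whose median depth was 2108, 2102, 2286 and 2155 UMIs.

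Nuclei with more Pde10a and Rgs9 had higher levels of Rarb and Meis2 and lower levels of Erbb4 and Nxph1. The level of Rarb, a retinoic acid receptor used in striatal development, was 191 CPM in nuclei with 5 to 7 UMIs (n = 62), 272 with 8 to 14 (n = 92), 567 with 15 to 29 (n = 72) and 951 with 30 or more (n = 70). Meis2, a homeodomain factor of the striatal lineage, stood at 526, 513, 833 and 1171 in the same bins. The receptor tyrosine kinase gene Erbb4, abundant in interneurons, stood at 6997, 5272, 5440 and 2387, and Nxph1 at 1471, 1416, 1252 and 374. Adarb2, another interneuron marker, did not follow them, at 1856, 1374, 1408 and 1583, with a UMI in 48.4% of nuclei of the lowest and 75.7% of the highest bin. Deeper nuclei reach higher counts, and no test was run on these bins because the genes were measured in the nuclei that the bins sort.

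**Figure D1:**
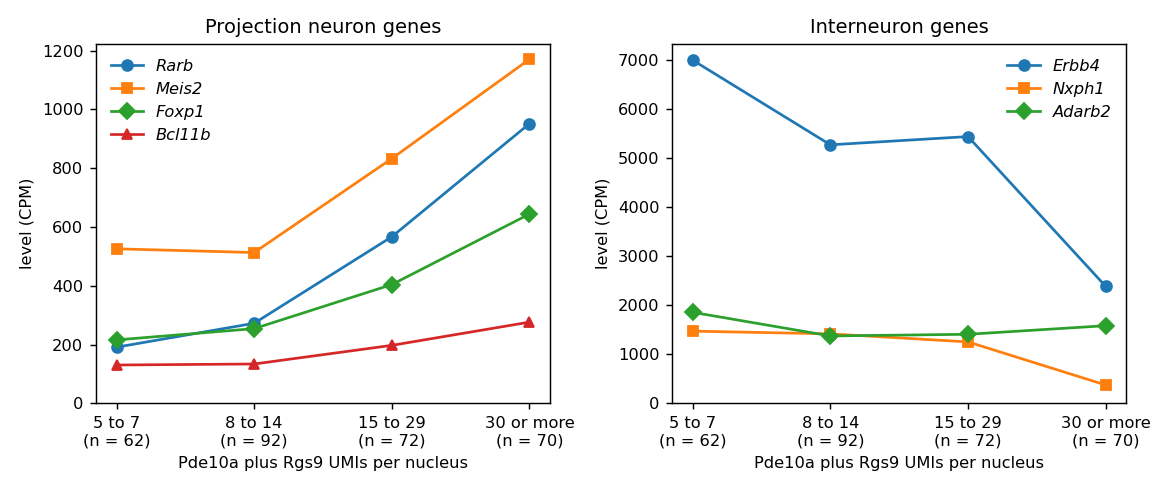
Level of 4 projection neuron genes (left) and 3 interneuron genes (right), in CPM, against the Pde10a plus Rgs9 count per nucleus in 4 bins, over all 4 libraries. Each point is the summed level of a bin. Rarb and Meis2 are highest in the bin of 30 or more UMIs, where Erbb4 and Nxph1 are lowest.

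The 296 nuclei split into 10 divisions by clustering, and 3 divisions carried the genes of D1 projection neurons. Divisions 1, 3 and 7 each had at least 3 of 12 D1 projection neuron markers outside the rule and together held 115 nuclei (38.9%). Division 1 (n = 54) had 10 of the 12, among them Tac1, the dynorphin precursor Pdyn, the LIM factor Isl1, the dopamine-regulated phosphatase inhibitor Ppp1r1b (DARPP-32), the transcription factors Bcl11b, Foxp1, Meis2 and Rarb, and adenylyl cyclase 5 (Adcy5). It was led by Ebf1, Prkch, Sh3rf2 and Gli3 and also had 4 matrix markers (Epha4, Sgk1, Rasgrp2 and Calb1). Division 3 (n = 44) had 6 of the 12 and was led by Penk, Otof, Sema5b, Foxp2, Casz1 and Tshz1. It also had 4 striosome markers (Oprm1, Sema5b, Lypd1 and Tshz1) and 3 of 5 eccentric markers (Otof, Casz1 and Cacng5). Division 7 (n = 17) had 5 of the 12 and was led by Wnt2, Abca4, Clic6, Slco5a1, Cacna1h and Htr4. It likewise had 3 eccentric markers (Casz1, Otof and Col11a1). Both divisions thus reach 3 markers of the eccentric list as well, with more of the D1 list. Since clusters are built from these same genes, their levels describe the divisions and test nothing.

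Among the 3 divisions, Ebf1, Penk and Htr4 each had their highest level in a different one. Ebf1, an early B cell factor that acts in direct pathway development, stood at 397 CPM in division 1 with a UMI in 63.0% of nuclei, and at 0 in divisions 3 and 7. Penk, the enkephalin precursor best known from the indirect pathway, stood at 215 CPM in division 3 with a UMI in 54.5% of nuclei. Foxp2 reached 880, 3440 and 1680 CPM in divisions 1, 3 and 7, and Foxp1 1116, 275 and 1227, so the related factors ran in opposite order in divisions 1 and 3. Htr4, a serotonin receptor that raises cAMP, had a UMI in 94.1% of division 7 nuclei, and the D3 receptor gene Drd3 in 58.8%. Tac1 had a UMI in 50.0, 59.1 and 76.5% of nuclei in divisions 1, 3 and 7.

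The other 7 divisions, with 181 nuclei, went against the projection neuron name. Division 2 (n = 50) was interneuron-like by Pvalb, Lhx6 and Erbb4 and was led by Cemip, Eya4 and Pde5a. Division 8 (n = 15) was interneuron-like by Sst, Npy, Nos1 and Lhx6, with a UMI of Nos1, Npy and Sst in 100% of its nuclei, and division 10 (n = 11) by Vip, Lamp5, Npy, Adarb2 and Erbb4. Division 4 (n = 39) was cortical-excitatory-like by markers that included Neurod6, Tbr1 and Nrgn. Division 6 (n = 18) was oligodendrocyte-like by all 5 myelin markers, while Rarb and Meis2 had a UMI in 77.8% and 94.4% of its nuclei and 4 microglial markers (C1qa, C1qb, C1qc and Cx3cr1) were also raised. Division 5 (n = 35), led by Otx2os1, Gpc5, Rmst and Tcf7l2, and division 9 (n = 13), led by Paqr5 and Sst, had fewer than 3 markers of any type and stay unnamed. A high Scrublet doublet score fell on 29 of 39 nuclei of division 4 and 11 of 18 of division 6, compared with 4 of 115 nuclei (3.48%) of divisions 1, 3 and 7. Over the 181 other nuclei it fell on 51 (28.2%). Of all kept nuclei, the cutoff set 12.9, 12.2, 7.67 and 8.95% as high in WT 1, WT 2, HET 1 and HET 2. Of the Drd1-gated nuclei, 18.9, 24.1, 13.8 and 12.9% were high.

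**Figure D2:**
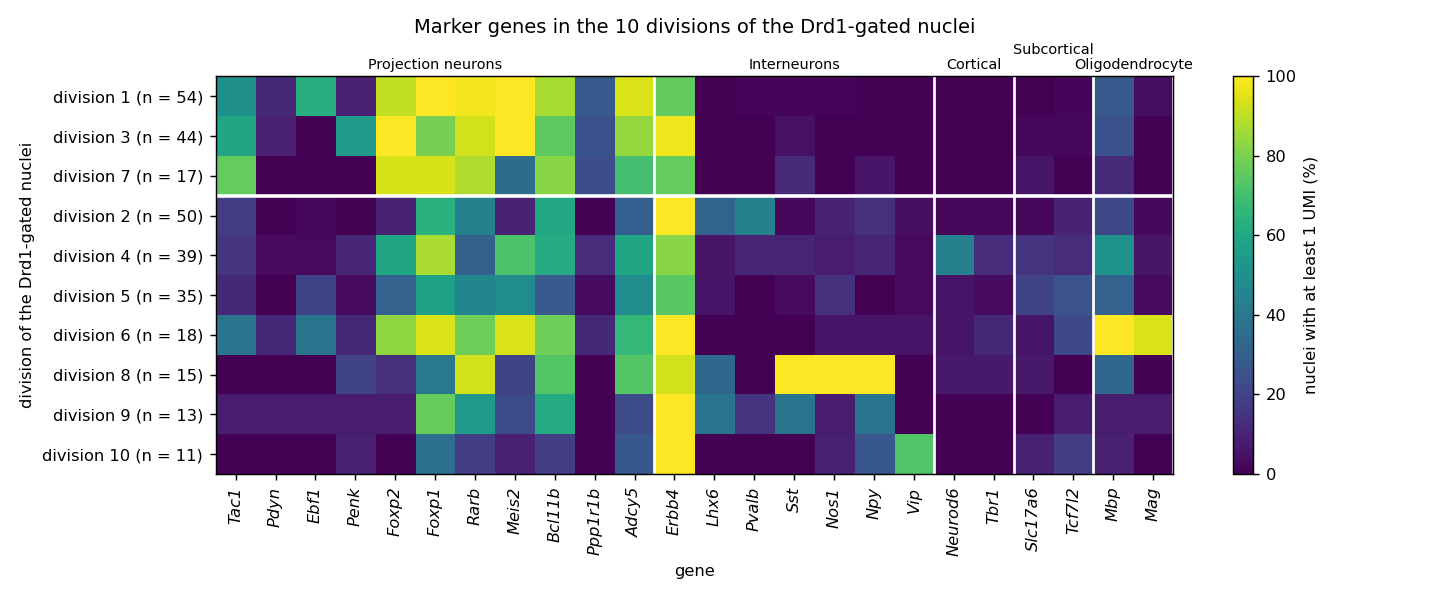
Share of nuclei with at least 1 UMI (color, %) of 24 marker genes (columns, grouped by cell type) in the 10 divisions of the Drd1-gated nuclei (rows, with n). Divisions 1, 3 and 7, above the white line, hold the projection neuron genes, division 8 has Sst, Nos1 and Npy in all nuclei, and division 6 has Mbp in all nuclei.

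Values of genes that chose the nuclei or shaped the clusters are given here as descriptions of the split, not as support for it. Median Pde10a plus Rgs9 was 23 UMIs in divisions 1, 3 and 7 and 11 elsewhere, and Rgs9 was at 0 in 9 of 115 against 129 of 181 nuclei. Drd1 stood at 2 or more UMIs in 28 of 115 and in 10 of 181 nuclei. Tac1 had a UMI in 57.4% of nuclei in the 3 divisions and 14.9% elsewhere, and Foxp2 in 94.8% and 31.5%. Lhx6, a factor of interneurons from the medial ganglionic eminence, was at 0 in all 115.

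The share of projection-neuron-like nuclei overlapped between the genotypes. Divisions 1, 3 and 7 took up 17 of 53 nuclei in WT 1 (32.1%), 49 of 116 in WT 2 (42.2%), 27 of 65 in HET 1 (41.5%) and 22 of 62 in HET 2 (35.5%). The HET libraries lay between the WT libraries (WT 37.2% ± 7.19, HET 38.5% ± 4.28, SD, n = 2 each, exact permutation p = 1). Division 3 held 7, 15, 10 and 12 nuclei and division 7 held 0, 7, 7 and 3 in WT 1, WT 2, HET 1 and HET 2. Division 6 was uneven, with 3 and 13 nuclei in the WT libraries and 1 in each HET library. None of the 10 division shares could pass a test at this size. Ebf1 and Mag, which lead divisions 1 and 6, differed by genotype, so the sizes of these divisions are not compared.

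**Figure D3:**
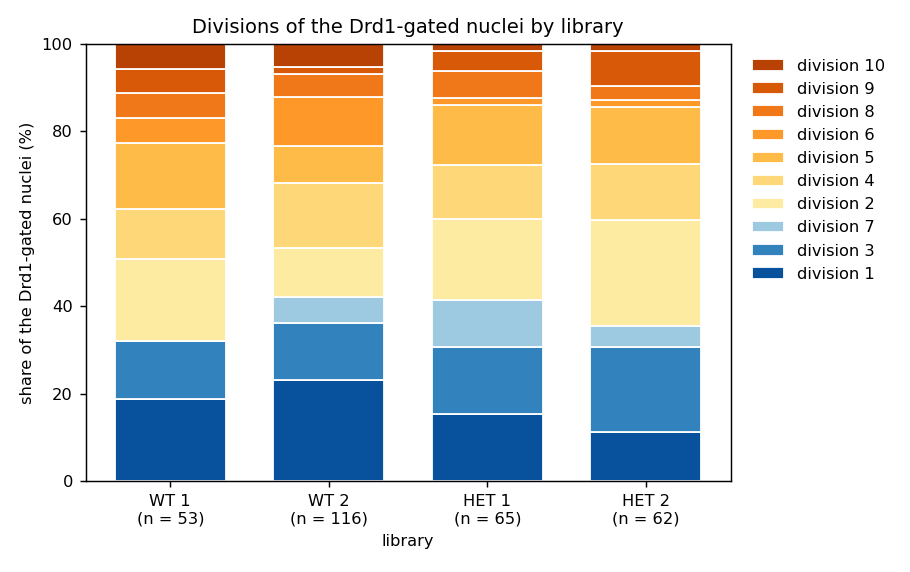
Share of the Drd1-gated nuclei (%, stacked to 100) in each of the 10 divisions for the 4 libraries, with the number of nuclei under each bar. The blue segments, divisions 1, 3 and 7, reach 32.1, 42.2, 41.5 and 35.5%, and the segment of division 6 is widest in WT 2.

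Compared with Drd2-gated nuclei of the same libraries, Drd1-gated nuclei had more Tac1, Foxp2 and Erbb4 and less Penk and Htr2c. Counts were summed per library and gate and tested with edgeR's quasi-likelihood test with the library as a block, over 8471 genes. With a Benjamini-Hochberg adjusted p under 0.05, 111 genes were higher (1.31% of genes tested) and 67 were lower (0.791%). Tac1 is the best known neuropeptide of the direct pathway. It reached 22.2, 72.0, 73.6 and 56.7 CPM in the Drd1-gated nuclei of WT 1, WT 2, HET 1 and HET 2 and 4.46, 19.8, 6.36 and 25.7 in the Drd2-gated nuclei. Tac1 was higher in the Drd1 gate in each of the 4 libraries (log2 fold change 2.10, SE 0.28, edgeR adjusted p = 0.000185). A Tac1 UMI was found in 17, 35.3, 38.5 and 29% of Drd1-gated nuclei and in 1.4, 1.6, 1.6 and 0.4% of the shallower oligodendrocyte nuclei.

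Of the 11 direct pathway genes, 5 were tested, 2 were higher (Tac1 and the ion channel gene Asic4, log2 fold change 1.95, edgeR adjusted p = 0.0474) and none was lower, and the median log2 fold change was 1.34 against 0.00 over all genes tested. The call for Asic4 was lost in several alternatives (adjusted p up to 0.407, without WT 1). Ebf1 had 129.8, 125.3, 20.8 and 32.6 CPM in the Drd1 gate and 16.9, 17.1, 54.0 and 39.4 in the Drd2 gate (log2 1.34, SE 0.44, adjusted p = 0.165), so over all gated nuclei it was higher in the Drd1 gate in WT libraries and lower in HET libraries. In the projection-neuron-like divisions alone it was higher in the Drd1 gate in each library, at 392, 294, 24.5 and 113 CPM against 0, 2.81, 8.45 and 30.8. Pdyn and Isl1 were too sparse to be tested, with a UMI in 3.2 to 6.0% and 3.2 to 9.2% of Drd1-gated nuclei.

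Penk moved the other way. It stood at 20.4, 14.8, 40.3 and 51.5 CPM in the Drd1 gate and at 56.1, 213, 109 and 51.4 in the Drd2 gate (log2 −1.85, SE 0.34, adjusted p = 0.00462), with near equal levels in HET 2. Without the library as a block the edgeR adjusted p of Penk was 0.104, and over all 14 alternatives it ran from 0.000208 to 0.49. The serotonin receptor gene Htr2c reached 169, 212, 206 and 225 CPM in the Drd1 gate against 550, 414, 410 and 1107 in the Drd2 gate (log2 −1.46, SE 0.16, adjusted p = 4.32e-05), with no overlap between gates.

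Foxp2, a forkhead factor of projection neurons, was the leading projection neuron gene. Its levels were 502, 704, 1007 and 900 CPM in the Drd1 gate and 205, 253, 174 and 247 in the Drd2 gate (log2 1.81, SE 0.15, edgeR adjusted p = 7.47e-07). Of the 22 projection neuron identity genes, 19 were tested, 2 were higher (Foxp2 and the retinoid receptor Rxrg) and 1 was lower (Ptpn5, the striatum-enriched phosphatase STEP), with a median of 0.00. The calls for Rxrg and Ptpn5 were lost without HET 1, without HET 2 and without the library as a block, with an adjusted p of up to 0.379 for Rxrg (without HET 1) and 0.401 for Ptpn5 (DESeq2), while Foxp2 passed in all of its alternatives. Rarb (0.32, adjusted p = 0.521), Meis2 (−0.10, adjusted p = 0.851), Adcy5 (0.11) and the G protein subunit gene Gnal (0.06) did not pass the test. Foxp1 did not pass either (log2 −0.47, SE 0.12, adjusted p = 0.0526).

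Of 27 dopamine and cAMP signaling genes tested, 1 was higher (the potassium channel gene Kcnj3, log2 0.46, edgeR adjusted p = 0.0236). Of 6 striosome genes tested, 3 were higher: Sema5b (1.21), the zinc finger factor Tshz1 (1.15) and the splicing regulator Khdrbs3 (0.50), and of 6 matrix genes none passed. Drd3 reached 5.56, 38.5, 45.9 and 27.5 CPM in the Drd1 gate and 8.91, 7.22, 23.3 and 6.86 in the Drd2 gate (log2 1.36, adjusted p = 0.0338). It was lower in the Drd1 gate in WT 1 and higher in the other 3 libraries. Over their alternatives Sema5b and Tshz1 passed throughout, whereas the adjusted p reached 0.687 for Khdrbs3 (stricter gate), 0.513 for Kcnj3 and 0.335 for Drd3 (both without the library as a block). Of 14 GABA receptor and 4 immediate early genes none passed, and of 21 glutamate receptor genes 2 were lower, Grik3 among them (adjusted p up to 0.0874, without HET 1).

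The 10 genes with the smallest p on the higher side were Erbb4, Sox6, Foxp2, Cemip, Cntnap3, Eya4, Osbpl3, Runx2, Btbd11 and Pde5a. All but Foxp2 had the most UMIs in the interneuron-like division 2 (for Cntnap3, as many as in the 3 projection-neuron-like divisions together). Erbb4 stood at 4925 ± 1003 CPM in the Drd1 gate and at 1829 ± 335 in the Drd2 gate (SD, n = 4 libraries, log2 1.44, SE 0.10, edgeR adjusted p = 1.34e-07). Of 7 interneuron markers tested, 3 were higher (Erbb4, Nos1 and Npy). Erbb4 passed in all of its alternatives, while the adjusted p reached 0.852 for Npy with DESeq2 and 0.0509 for Nos1 without the library as a block. The 10 interneuron markers summed to 7291, 5558, 6998 and 7001 CPM in the Drd1 gate and 4117, 2550, 3295 and 3842 in the Drd2 gate. Erbb4 was the most abundant of them, and none was at 0. The other 9 markers summed to 1978, 2120, 1688 and 1362 CPM in the Drd1 gate and 1867, 1075, 1625 and 1921 in the Drd2 gate, so without Erbb4 the gates overlapped and HET 2 had the lower sum in the Drd1 gate. On the lower side stood Htr2c, Gpc5, Adk, Pde1c, Fam19a1, Vav3, Nkain3, Zfhx3, Rmst and Grik3. Gpc5, Zfhx3 and Rmst had the most UMIs in the unnamed division 5, and both subcortical excitatory markers, Slc17a6 and Tcf7l2, were lower, though neither passed without HET 1 (adjusted p = 0.145 and 0.222). The part of these other cells in the difference between gates was not tested.

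Within the projection-neuron-like divisions, Foxp2 was higher and Foxp1 lower in the Drd1 gate with no overlap between libraries, given as values with no test because clustering used these genes. The mirror gate held 28, 64, 16 and 16 such nuclei (124 of 383, 32.4%). Levels are summed over divisions that were not matched between the gates. The division with Casz1 and Sema5b among its leading genes held 44 of 115 nuclei in the Drd1 gate (division 3). Its counterpart in the Drd2 gate held 16 of 124. Foxp2 and Foxp1 also differed among the Drd1-gated divisions, as given above. Tac1 stood at 36.3, 165, 175 and 167 CPM in the Drd1-gated and 4.51, 19.7, 8.45 and 38.5 in the Drd2-gated nuclei. Foxp2 ran from 1169 to 3020 in the former and from 185 to 444 in the latter, and Foxp1 from 593 to 1002 and from 1177 to 1758, so neither overlapped. Sfxn1 (26.7 to 58.1 against 15.4 to 22.6) and the zinc finger factor Zfp521 (33.3 to 174 against 0 to 16.8) were also higher without overlap. Of the indirect pathway genes, Upb1 was lower without overlap (0 against 4.51 to 59.2). The share of all genes that separate in this way was not computed, so these values are descriptions. Apart from genes of the rule, all other measured genes of the direct pathway, indirect pathway and projection neuron identity lists overlapped, Tac1 among them. The ranges ignore that both gates come from the same libraries. Library by library, Tac1, Ebf1 and Rxrg were higher in the Drd1 gate in all 4, and Ptpn5 and Gng7 in none. Penk overlapped, at 58.1, 33.1, 102 and 200 against 230, 483, 330 and 192.

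**Figure D4:**
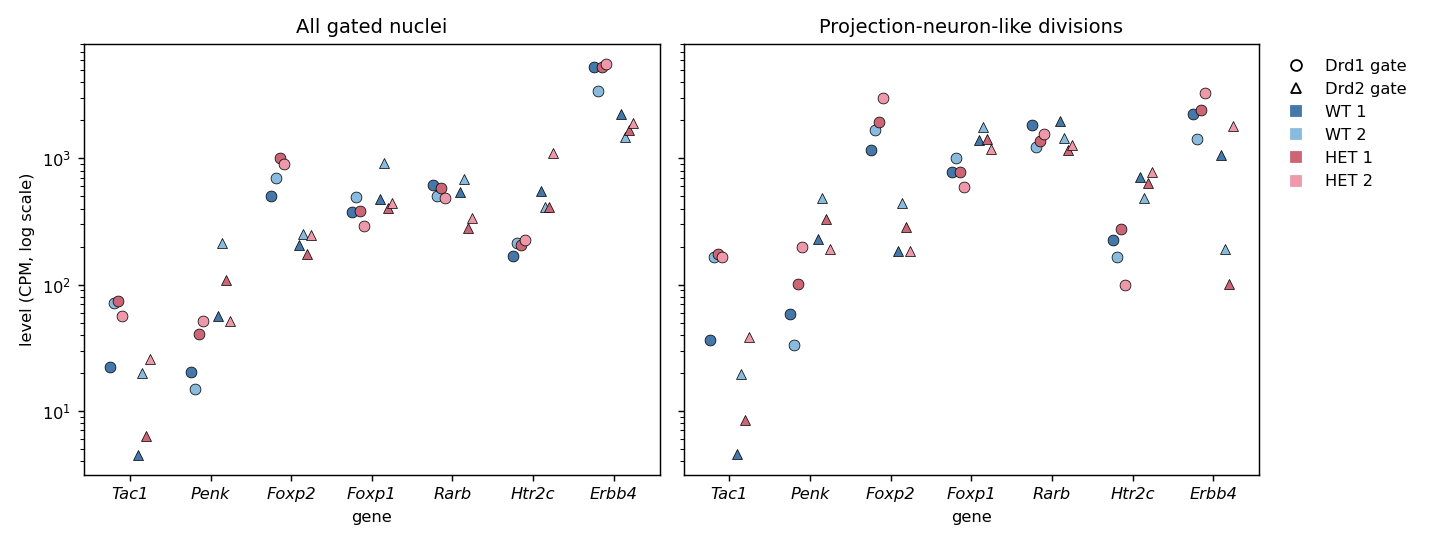
Level of 7 genes (CPM, log scale) in Drd1-gated (circles) and Drd2-gated (triangles) nuclei of the 4 libraries (color), for all gated nuclei (left) and for the projection-neuron-like divisions of each gate (right). Foxp2 and Tac1 lie higher and Htr2c lower in the Drd1 gate in each library of both panels, while Foxp1 separates without overlap in the right panel only.

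Csf1r, the gene targeted in the HET mice, was close to absent from the Drd1-gated nuclei. It had 0, 5, 4 and 3 UMIs in WT 1, WT 2, HET 1 and HET 2, in 0, 3.4, 4.6 and 4.8% of nuclei, compared with 1.1, 3.5, 0.8 and 3.1% of oligodendrocyte nuclei. The count of 0 in WT 1 allows up to 3 UMIs. Csf1r is a gene of microglia, so these nuclei cannot check the genotype labels, and no difference in Csf1r was detectable at this depth.

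Between genotypes, Drd1-gated nuclei of HET mice had lower levels of oligodendrocyte genes and Ebf1, and no gene was higher after adjustment in the quasi-likelihood test on all 4 libraries. With edgeR's quasi-likelihood test on counts summed per library, 8706 genes were tested. At the unadjusted threshold of the study (p under 0.01), 29 genes were higher in HET (0.333%) and 101 were lower (1.16%). At an adjusted p under 0.05, 0 genes were higher (0%) and 18 were lower (0.207%). At an unadjusted p under 0.05 there were 482 genes, 185 of them higher. DESeq2 called 4 genes at an adjusted p under 0.05, all lower. The likelihood-ratio test called 1 gene higher (Strip2) and 34 lower, and the replicate block 1 higher (Strip2 again) and 21 lower. The split between higher and lower genes was not stable when a WT library was left out. Without WT 2, 124 genes were higher and 83 lower at p under 0.01, and 28 were higher and 29 lower after adjustment. Without WT 1 the counts were 89 and 228, and 21 and 94 after adjustment.

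The 18 genes included Prr5l, Ebf1, St18, Mag, Cpa6, Mbp, A230001M10Rik, Neat1, Mobp, Enpp2, Aspa, Gjc3, Plekhh1, Apod, Dock10, Ugt8a and Mog, and 16 of them had the most UMIs in the oligodendrocyte-like division 6. The exceptions were Ebf1 (division 1) and Cpa6 (division 4). Mag, the myelin-associated glycoprotein, stood at 27.8 and 51.3 CPM in the WT libraries and at 4.17 and 1.72 in the HET libraries (log2 −3.69, SE 0.60, edgeR adjusted p = 0.0153). Mbp, myelin basic protein, stood at 92.7 and 232 against 48.6 and 36.1 (log2 −1.99, SE 0.34, adjusted p = 0.0189). A230001M10Rik had 41 UMIs in WT and 0 in HET, at least 11.4-fold lower against a floor of 3 UMIs over both HET libraries. All 5 oligodendrocyte markers were lower at the adjusted threshold, with a median log2 fold change of −3.15. None of the 5 passed it with high doublet scores left out, where Ebf1 was the 1 gene that passed. Mag failed the filters for testing in that setting, so for Mag this is not a failed test. The stricter gate left 2 genes past it. In the alternatives that tested them the 5 markers stayed lower, with log2 fold changes from −4.59 (Mog) to −0.38 (Mbp).

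Oligodendrocyte transcripts were unevenly spread among the libraries. The 5 markers summed to 256 and 569 CPM in WT and 76.4 and 63.6 in HET, with Mbp the most abundant and none at 0. In the Drd2 gate the sums were 71.3, 560, 156 and 132, so WT 1 was there the lowest. Nuclei with at least 5 such UMIs numbered 5 in WT 1, 22 in WT 2, 1 in HET 1 and 1 in HET 2. With these 29 nuclei left out, an alternative chosen after the data were seen, 15 genes were higher and 32 lower at p under 0.01, and 1 gene passed the adjusted threshold, Ebf1 (log2 −2.32, edgeR adjusted p = 0.0276). Of these 29 nuclei 27 were from WT, and they were chosen on transcripts that the comparison had called. Of the 18 genes 13 then failed the filters for testing, such as Mag and Mog with 1 UMI each over the 4 libraries. Cpa6 was also not tested, though it still held 17 and 33 UMIs in WT 1 and WT 2 and 2 and 4 in HET 1 and HET 2. All 5 tested genes were still negative, with Mbp at −0.38, Enpp2 at −0.34 and Dock10 at −0.31 (edgeR adjusted p = 0.999 for each).

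Ebf1 lies at chr11:44617317-45008091 on the plus strand (GRCm38). It had 70 and 127 UMIs in WT 1 and WT 2 and 15 and 19 in HET 1 and HET 2, found in 12, 27, 7 and 5 nuclei. As CPM these were 129.8, 125.3, 20.8 and 32.6, with both WT libraries above both HET libraries (log2 −2.28, SE 0.28, edgeR adjusted p = 0.000502). The largest nucleus held 9.09% of its UMIs. The 14 alternatives gave log2 fold changes between −2.69 and −1.97 and adjusted p between 7.33e-11 and 0.0276. Of all Ebf1 UMIs, 71.9% lay in division 1, where the levels were 567, 492, 60.3 and 397 CPM from 54, 89, 6 and 17 UMIs. In that division HET 1 was far below the other 3 libraries, and HET 2 lay below both WT libraries by less.

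On the higher side, the 10 genes with the smallest p were Strip2, Kcnc1, Penk, Maf, Foxp2, Begain, Pdap1, Tmem255a, Col11a1 and Arl5b, and none passed adjustment in the quasi-likelihood test. Strip2 had 37.1, 63.1, 87.5 and 153 CPM in WT 1, WT 2, HET 1 and HET 2 (log2 1.17, SE 0.29, edgeR adjusted p = 0.252, but 0.0451 with the likelihood-ratio test and 0.0172 with the replicate block). Penk (chr4:4133531-4138819, minus strand, GRCm38) had 20.4, 14.8, 40.3 and 51.5 (log2 1.41, SE 0.39, adjusted p = 0.341), with 85.9% of its UMIs in the projection-neuron-like divisions. Foxp2 stood at 502, 704, 1007 and 900 (log2 0.64, SE 0.18, adjusted p = 0.383). In these 3 genes both HET libraries lay above both WT libraries, a description only, since the genes were picked by their small p. Kcnc1, a fast potassium channel gene, and Maf, an interneuron transcription factor, had the most UMIs in the interneuron-like division 2.

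**Figure D5:**
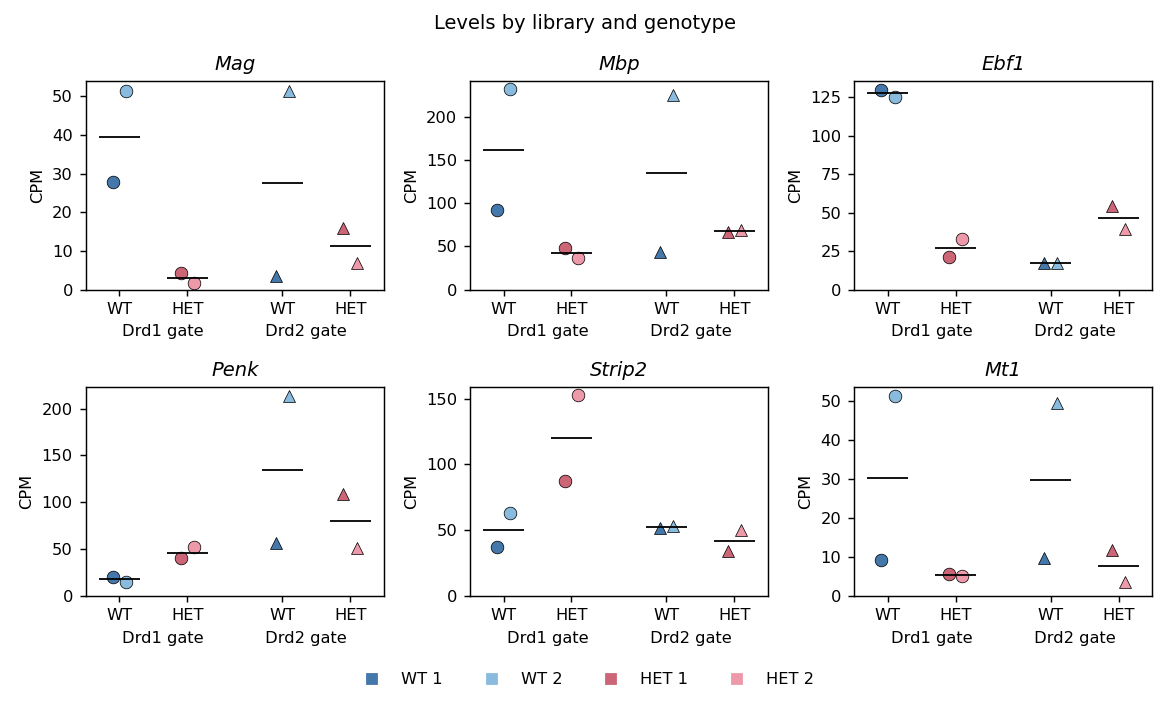
Levels (CPM, each axis from 0) of 6 genes in each library (points) with the genotype mean (line), for the Drd1 gate (circles) and the Drd2 gate (triangles). Ebf1 is lower in HET in the Drd1 gate and higher in HET in the Drd2 gate, and the WT mean of Mt1 rests on WT 2 in both gates.

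Genes of striatal function showed few differences between genotypes, read against the 0.333% and 1.16% of all genes at p under 0.01. Of 18 projection neuron identity genes tested, 1 was higher (Foxp2) and none lower, with a median log2 fold change of −0.18. Of 27 dopamine and cAMP genes none passed (median −0.09), and likewise none of 14 GABA receptor, 24 listed potassium channel, 6 striosome or 5 immediate early genes. Kcnc1, which was higher at p under 0.01, is not on the potassium channel list. Of 21 glutamate receptor genes 1 was lower (Grm8, log2 −0.62), and of 15 other receptor genes Htr4 was higher (0.77) and the cannabinoid receptor gene Cnr1 lower (−0.71). Of 6 matrix genes 1 was lower, Epha4, an ephrin receptor gene, with 187, 213, 125 and 105 CPM in WT 1, WT 2, HET 1 and HET 2 (log2 −0.81, SE 0.20, adjusted p = 0.216). Foxp2, Grm8, Htr4 and Cnr1 kept their direction but missed p under 0.01 in several alternatives, and Epha4 only without HET 2. Tac1 had 22.2, 72.0, 73.6 and 56.7 CPM, with WT 1 low and the other libraries alike (log2 0.34, SE 0.36, edgeR adjusted p = 0.982).

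Metallothionein, ribosomal and stress genes were addressed because the study followed metal ion balance and stress in Csf1r+/- brains. Mt1, a zinc- and copper-binding metallothionein, stood at 9.27, 51.3, 5.56 and 5.15 CPM in WT 1, WT 2, HET 1 and HET 2 (log2 −2.62, SE 0.68, under the unadjusted threshold, edgeR adjusted p = 0.302). Without WT 2 the log2 fold change of Mt1 was −0.80 (edgeR adjusted p = 0.934), and over the 14 alternatives the adjusted p ran from 1.02e-06 to 1.0. An Mt1 UMI was found in 9.4, 32.8, 4.6 and 4.8% of Drd1-gated nuclei and in 8.6, 25.6, 7.0 and 3.5% of oligodendrocyte nuclei, so WT 2 was high in both. Mt3, the brain metallothionein, stood at 16.7, 36.5, 18.1 and 17.2 (log2 −0.69, edgeR adjusted p = 0.962). Of 74 cytosolic ribosomal protein genes tested, 71 were negative and 6 were lower at p under 0.01, with a median of −0.72. All 83 together summed to 1290, 2734, 1462 and 1155 CPM in the Drd1 gate and 1191, 2897, 1503 and 1314 in the Drd2 gate, so WT 2 stood apart in both and WT 1 lay between the HET libraries in the Drd1 gate. Of 13 stress and death genes 2 were lower at p under 0.01, the apoptosis inhibitor gene Bcl2l1 (log2 −0.91) and the apolipoprotein gene Apoe (−1.43). Without WT 2 Apoe turned to 0.08 (edgeR adjusted p = 0.991) and Mt3 to 0.04, while Bcl2l1 stood at −0.82 and no longer passed the threshold. Both astrocyte markers tested, Slc1a2 (−0.67) and Slc1a3 (−2.14), were lower at p under 0.01 too, and without WT 2 they stood at −0.38 and −1.27 and did not pass.

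The genotype effect itself was compared between the Drd1 and Drd2 gates as an interaction, with the library as a block, over 8471 genes. At p under 0.01 the effect was higher in the Drd1 gate for 86 genes (1.02%) and lower for 80 (0.944%). At an adjusted p under 0.05 it was higher for 8 (0.0944%) and lower for 9 (0.106%). Ebf1 led, since it was lower in HET in the Drd1 gate but stood at 16.9 and 17.1 in WT against 54.0 and 39.4 in HET in the Drd2 gate (log2 difference −3.75, SE 0.40, edgeR adjusted p = 3.41e-07). Over its 14 alternatives the Ebf1 difference lay between −4.25 and −3.12 with an adjusted p between 2.35e-16 and 0.225. It passed in all of them but the stricter gate (0.225) and without HET 1 (−3.16, adjusted p = 0.120). The Ebf1 UMIs of the gates lay largely in different kinds of nuclei. In the Drd1 gate 71.9% were in division 1, while in the Drd2 gate only 0, 1, 1 and 4 of 19, 19, 51 and 23 UMIs were in projection-neuron-like nuclei. Penk differed by 2.27 (SE 0.47, adjusted p = 0.0206). Without WT 2, whose Drd2-gated nuclei held 213 CPM, the Penk difference was 0.62 (edgeR adjusted p = 0.998). Of 19 projection neuron identity genes 6 had a higher effect in the Drd1 gate at p under 0.01 (Rxrg, Foxp2, Gng7, Rarb, Phactr1 and Adcy5) and none had a lower one, with a median of 0.51. None of the 6 passed adjustment, Rarb being nearest (0.97, adjusted p = 0.0504). Without WT 2 the difference for Rarb was 0.66 (edgeR adjusted p = 0.577). The summed level of this list, which includes Pde10a and Rgs9, in the Drd2 gate was 10388, 18440, 9919 and 10210, with WT 2 apart from the other 3 libraries, and in the Drd1 gate 11395, 14709, 13535 and 11889.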

How the data were processed

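The deposited files hold UMI counts per gene and nucleus, made by the authors with Cell Ranger 5.0.0 (per the file headers) against mm10 (per the labels). They were filtered to 500 to 50000 UMIs, over 200 genes and under 5% mitochondrial UMIs. WT 1, WT 2, HET 1 and HET 2 held 112226479, 89727416, 89436507 and 89799327 UMIs. Libraries were grouped by their labeled genotype. The members, lists and tests were chosen with earlier results of these data known.

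Counts were summed per library and gate and tested in edgeR 4.0.16 (R 4.3.3, TMM, quasi-likelihood, two-sided), for genes detected in 10% or more of either group's nuclei and with 10 or more counts. The study's edgeR test and its unadjusted threshold of 0.01 guided this design. The 8 genes of the rule were not tested. On simulated counts for the genotype comparison (8706 genes), 24.5% of genes changed by a log2 fold change of 1 and, among 8704 genes, 80.5% of those changed by 2 passed the adjusted threshold. For the comparison of gates (8471 genes), 81% and 99.5% did. All genes were drawn at a common dispersion (0.0198 for genotype and 0.0104 for the gates), with no difference in cell mix among libraries. A pass in either direction counted. These shares therefore do not cover the spread among the real libraries.

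Gated nuclei were clustered with scanpy 1.11.5 and leidenalg 0.10.2 (1000 variable genes, 15 components, 15 neighbours, resolution 1). A division was called "-like" from at least 3 listed markers, each found in at least 10% of its nuclei and at least 2 times higher than elsewhere. Doublets were kept, and their Scrublet scores are given. The top 0.8% of nuclei per 1000 nuclei of each library counted as high.

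Named are the members of the described lists, the 10 genes with the smallest p in each direction of a comparison among those past its threshold, Csf1r and the genes of the rule. Other genes (division leaders, genes from the interaction) were named after their values were seen. Alternatives were another test, DESeq2 1.42.0, other scaling and filters, a stricter gate, doublets left out, the replicate block and each library left out. The GENCODE and RefSeq annotations gave positions and promoters. A few listed genes are not reported here.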

Additional observations from a re-analysis of the deposited data

Results flagged for a closer look

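For 17 genes the effect of genotype differed between the Drd1 gate and the Drd2 gate by edgeR's interaction test (adjusted p between 3.41e-07 and 0.0443). Values are log2 differences, the HET over WT effect in the Drd1 gate minus that in the Drd2 gate, and chance was set only by the adjustment over 8471 genes. Most of these calls were not stable. The adjusted count was 0 with the stricter gate and without HET 1, and 1 without HET 2, with DESeq2 and without the library as a block. Ebf1 passed in 12 of its 14 alternatives, while the other 16 genes passed in 3 (Inpp4b) to 9 (6530403H02Rik and Sst) of theirs, and the highest adjusted p of each was at least 0.9998.

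The effect was lower in the Drd1 gate for 9 genes. Ebf1 differed by −3.75, and its levels in both gates are given above. Prr5l, a gene with most UMIs in the oligodendrocyte-like division 6, differed by −3.21, at 76.0, 135, 4.17 and 12.03 CPM in WT 1, WT 2, HET 1 and HET 2 in the Drd1 gate and 2.67, 106, 33.9 and 34.3 in the Drd2 gate. Sst, the somatostatin gene of interneurons, differed by −1.47. It stood at 72.3, 91.7, 73.6 and 158 in the Drd1 gate and 41.0, 68.6, 179 and 240 in the Drd2 gate. Ankfn1 differed by −1.43, Npas3 by −1.19, Dock10 by −1.14, Cdh4 by −1.10, Lingo2 by −0.95 and Inpp4b by −0.90. Mean levels of Npas3 were 553 in WT and 474 in HET in the Drd1 gate, and 662 and 1240 in the Drd2 gate.

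It was higher in the Drd1 gate for 8 genes. Gm19410 differed by 3.26, at 20.4, 20.7, 18.1 and 24.1 in the Drd1 gate and 25.8, 47.8, 5.30 and 1.71 in the Drd2 gate. Penk differed by 2.27, and Cemip, the leading gene of the interneuron-like division 2, by 1.84. Cemip had means of 165 in WT and 239 in HET in the Drd1 gate against 39.0 and 16.8 in the Drd2 gate. The transcript 6530403H02Rik differed by 1.69, Strip2 by 1.53, Gm28928 by 1.23, Slc4a4 by 1.20 and Prkd1 by 1.14. For Strip2 the means were 50.1 in WT and 120 in HET in the Drd1 gate and 52.5 and 41.8 in the Drd2 gate.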

How the results depend on the processing

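Each comparison was repeated under other settings and without nuclei holding 5 or more oligodendrocyte UMIs, which was added after the data were seen. For genotype at p under 0.01 (130 genes), counts fell to 35 with DESeq2, 64 without high doublet scores, 73 with the stricter gate and 47 without the oligodendrocyte-rich nuclei. Leaving out 1 library gave 109 to 317 (317 without WT 1, 207 without WT 2), with the lone library assumed to vary like the other group. After adjustment (18 genes) they were 35 with the likelihood-ratio test, 4 with DESeq2, 1 without doublets, 2 with the stricter gate, 1 without those nuclei, and 21 to 115 without 1 library (115 without WT 1, 57 without WT 2). For the Drd1 against the Drd2 gate (178 genes) the likelihood-ratio test gave 274, DESeq2 79, the stricter gate 104 and single libraries left out 57 to 237 (104 without WT 1, 57 without HET 1, 89 without HET 2). For the interaction at p under 0.01 (166), DESeq2 gave 14, no detection filter 282 and single libraries left out 96 to 224 (96 without HET 1). After adjustment (17), the likelihood-ratio test gave 30, DESeq2 1, no detection filter 56, the stricter gate 0, the oligodendrocyte-rich nuclei left out 10 and single libraries left out 0 to 47 (47 without WT 1, 0 without HET 1, 1 without HET 2). The cause of these differences was not tested.

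The share of kept nuclei differed by 0.0713 percentage points, reversed to −0.0725 when thinned, and ranged from −0.145 to 0.287 without 1 library. The projection-neuron-like share differed by 1.35 points, reversed to −0.223 at resolution 0.5, and ranged from −2.87 to 7.05 without 1 library. The Drd1 share of both gates kept its sign (8.84, and 3.94 to 13.7 without 1 library). Of the genes named past a threshold, Apoe reversed in the genotype comparison without WT 2 (0.08), and Mbp in the interaction reversed without the oligodendrocyte-rich nuclei (0.56).

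Replicate numbers showed no sign of pairing the samples: deviations of WT 1 and HET 1 from their means correlated at −0.0077 across 8706 genes. With 2 libraries per genotype, this value cannot decide whether the numbers pair samples. With the replicate block, genotype gave 134 genes at p under 0.01 and 22 after adjustment. Without the library as a block, the gates differed in 40 genes and the interaction gave 44 at p under 0.01 and 1 after adjustment.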
